A study of Homo sapiens with 20 samples.

Results

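A set of 10 tubulin isotype genes usually described as tissue-restricted was followed across 5 gastric cancer cell lines. The members were the rows of the expression table named TUBA3C, TUBA3D, TUBA3E, TUBA1A, TUBA4A, TUBB2A, TUBB2B, TUBB3, TUBB4A and TUBB6, which are 10 of its 60232 genes, and all 10 passed the filter on low values. YCCEL1 and SNU719 carry Epstein-Barr virus (EBV+), and AGS, SNU16 and HGC27 do not (EBV−). The study classes YCCEL1, SNU719 and AGS as CIMP+, meaning that many of their CpG islands are methylated, and the other lines as CIMP−. Each line, labelled wild type, received decitabine (DCB), an inhibitor of DNA methyltransferases, for 72 h, or the solvent DMSO, and 2 libraries of polyadenylated RNA were sequenced per line and treatment, giving 20 libraries. Each line is a culture from a single tumour, so differences between EBV+ and EBV− or CIMP+ and CIMP− lines cannot be told apart from other differences between those lines. The labels name the last line HGC27, as does the study's text on its heatmap, which classes it as CIMP−. The study's methods name MKN74 in its place, and the labels are followed here.

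Microtubules are polymers of alpha and beta tubulin dimers, and the human genome encodes several isotypes of each, which differ mostly near the C-terminal tail that carries polyglutamylation and other modifications. TUBA1B, TUBA1C, TUBB and TUBB4B are made in most dividing cells. TUBA3C, TUBA3D and TUBA3E are known from testis, TUBA1A, TUBB2A, TUBB2B, TUBB3 and TUBB4A from neurons or brain, TUBA4A from platelets and nerve, and TUBB6 from muscle and other non-neural tissue. In these lines, 4 of the 10 (TUBA1A, TUBA4A, TUBB2A and TUBB3) were above 0 in all 20 libraries, although TUBA1A read at most 29.6 in the DMSO libraries outside HGC27. Whether the name tissue-restricted describes the genes here was not tested, and they are called by their symbols.

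The values are taken as normalized estimated counts, which the sources used here do not state, and by the steps between low values a lone read was worth 0.754 to 1.21 in the different libraries and 3 reads were worth 2.26 to 3.62. Totals ran from 7764408 to 9321014 per library. Replicates of a group correlated at 0.969 to 0.980 over genes. HGC27 stood apart in its markers. Its 7 epithelial markers summed to 260 and 288 in DMSO, against 37071 to 100500 in the DMSO libraries of the other lines, and its 6 fibroblast markers summed to 47594 and 48174, against 7.33 to 303 in the DMSO libraries of the other lines. Results over several lines were therefore also computed without HGC27. Nothing in the labels says that the 2 libraries of a group came from separate cultures. Apart from those of the DCB effect over all lines, the p-values therefore measure the spread between libraries, which may be technical. The effect over all lines was fitted as common to them, so its p-values also take in differences of the effect between lines. Libraries, not lines, were still counted as replicates in that fit. In bulk RNA, more cells expressing a gene and more RNA per cell cannot be told apart.

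DCB raised 7 of the 10 isotypes over the 5 lines and lowered none (limma, Benjamini-Hochberg adjusted p below 0.05 over 27350 genes), where 17.9% of all genes tested were higher and 6.94% lower. TUBA3D, TUBA3E and TUBB6 were higher in all 5 lines, TUBA3C and TUBB2A in 4, TUBA4A and TUBB2B in 3, TUBA1A in 2, TUBB3 in AGS alone and TUBB4A in none. By line, 7 isotypes were higher in YCCEL1 (14.6% of all genes), 5 in SNU719 (13.5%), 9 in AGS (18.5%), 5 in SNU16 (4.5%) and 6 in HGC27 (14.7%). The only isotype called lower in any line was TUBA1A in SNU16, where 2.34% of all genes were lower, beside 6.93% in YCCEL1, 7.64% in SNU719, 9.13% in AGS and 9.03% in HGC27. With a limit of 2 on the absolute log2 fold change added, 4, 3, 8, 4 and 5 isotypes were higher in the same order of lines, against 7.99%, 6.38%, 9.02%, 2.31% and 4.95% of all genes, and 4 were over the 5 lines, against 3.4%. The median difference over the 10 isotypes on the log2(value + 1) scale was 1.86 in YCCEL1, 1.21 in SNU719, 3.50 in AGS, 1.44 in SNU16 and 2.07 in HGC27, where the medians of all genes tested were 0.09, 0.11, 0.12, 0.01 and 0.04. These medians include isotypes listed at 0 in DMSO and depend there on the pseudocount, as do the medians of other gene lists given further on.

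**Figure D1:**
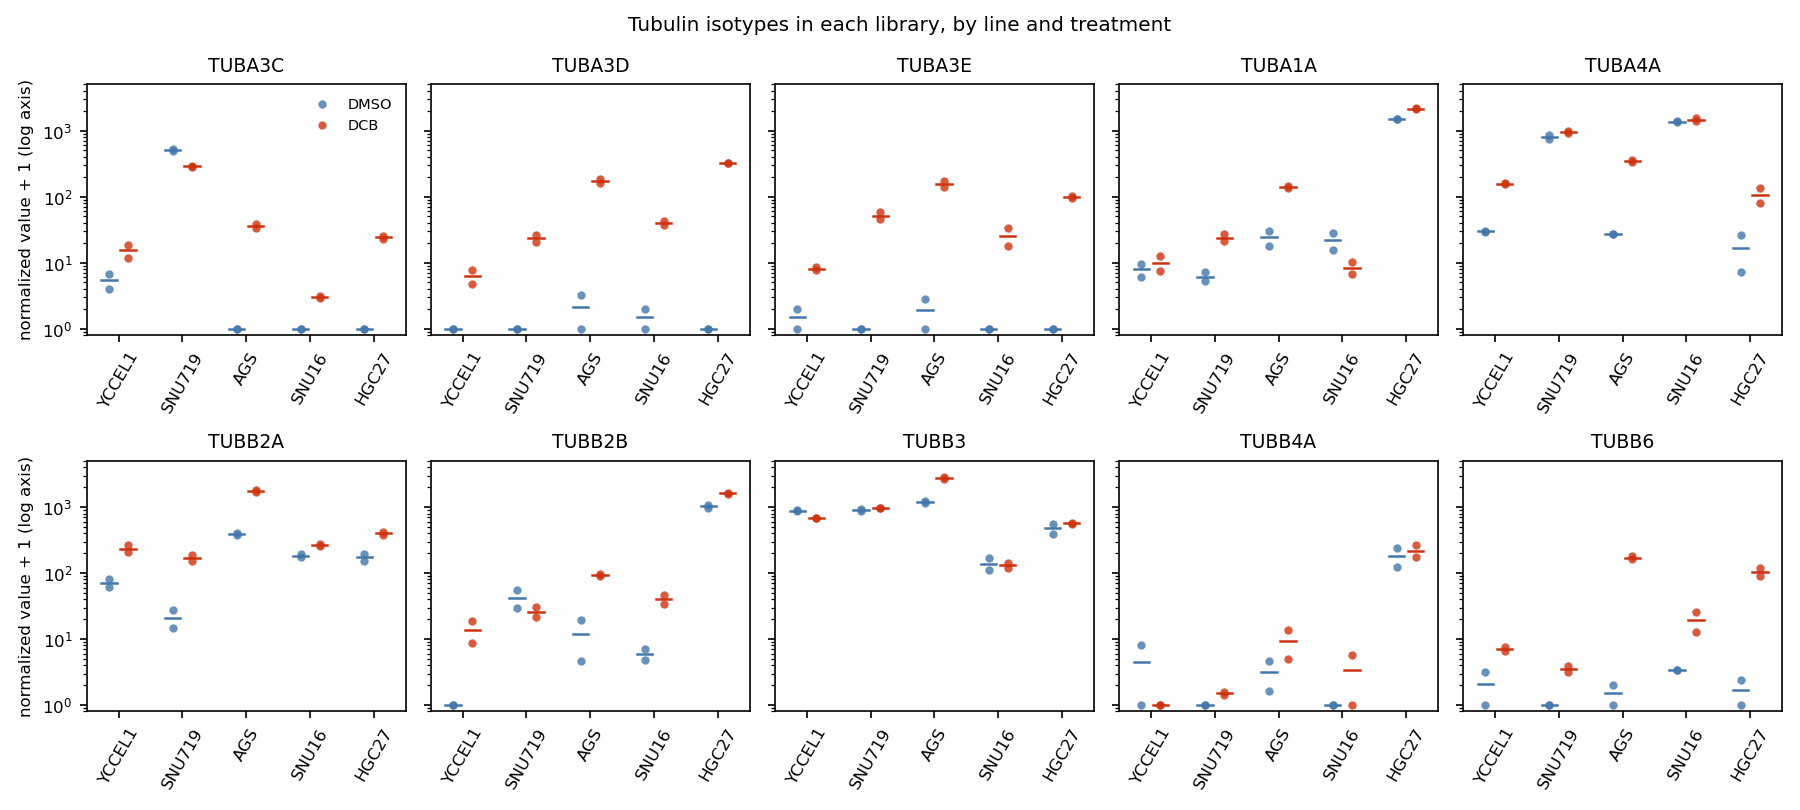
Normalized value plus 1 (log axis) of each tubulin isotype in each of the 20 libraries, by line, with DMSO in blue and DCB in red; points are libraries and short lines are group means. TUBA3D, TUBA3E and TUBB6 lay between 0 and 2.38 in all 10 DMSO libraries and between 2.22 and 324 in the 10 DCB libraries, while TUBB3 was at 111 or more in all 20 libraries.

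The alpha isotypes known from testis were nearly silent in DMSO, with a single exception, TUBA3C in SNU719. The stretches before their annotated starts are shown because TUBA3D and TUBA3E rose in all 5 lines and TUBA3C, their close relative, in 4 of them, and because they lie at separate places, TUBA3C on chromosome 13 (19173772 to 19181824, minus strand), TUBA3D on chromosome 2 (131476119 to 131482934, plus strand) and TUBA3E on chromosome 2 (130191745 to 130198439, minus strand). The stretches of TUBB6 and TUBB3 follow them, since these beta isotypes had the most CpG pairs of the set and opposite levels in DMSO. Each is the 250 bases before the start (RefSeq, GRCh38.p14), written 5′ to 3′ on the gene's strand, with CpG pairs in capitals. The windows are chr13:19181825-19182074 (minus) for TUBA3C, chr2:131475869-131476118 (plus) for TUBA3D, chr2:130198440-130198689 (minus) for TUBA3E, chr18:12307991-12308240 (plus) for the downstream start of TUBB6 and chr16:89923092-89923341 (plus) for the downstream start of TUBB3.
TUBA3C: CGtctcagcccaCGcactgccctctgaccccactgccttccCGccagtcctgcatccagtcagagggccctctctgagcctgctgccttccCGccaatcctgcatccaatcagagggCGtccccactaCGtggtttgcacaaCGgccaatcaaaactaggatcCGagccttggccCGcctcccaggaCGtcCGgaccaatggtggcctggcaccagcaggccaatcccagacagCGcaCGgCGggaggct
TUBA3D: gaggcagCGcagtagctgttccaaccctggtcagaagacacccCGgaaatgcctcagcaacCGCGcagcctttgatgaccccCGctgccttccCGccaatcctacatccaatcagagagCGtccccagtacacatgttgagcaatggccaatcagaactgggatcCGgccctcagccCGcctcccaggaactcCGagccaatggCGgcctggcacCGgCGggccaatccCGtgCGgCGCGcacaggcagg
TUBA3E: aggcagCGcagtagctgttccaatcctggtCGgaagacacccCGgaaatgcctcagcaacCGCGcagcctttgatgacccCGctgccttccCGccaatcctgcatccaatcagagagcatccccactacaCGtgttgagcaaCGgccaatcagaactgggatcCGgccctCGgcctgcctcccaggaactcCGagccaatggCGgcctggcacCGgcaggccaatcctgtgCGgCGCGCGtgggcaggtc
TUBB6: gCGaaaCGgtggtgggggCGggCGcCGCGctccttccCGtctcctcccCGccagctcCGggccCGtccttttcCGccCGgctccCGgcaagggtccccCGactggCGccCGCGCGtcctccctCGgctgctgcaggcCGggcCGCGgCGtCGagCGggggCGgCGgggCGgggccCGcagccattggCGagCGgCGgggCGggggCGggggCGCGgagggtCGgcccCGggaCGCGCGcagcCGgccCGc
TUBB3: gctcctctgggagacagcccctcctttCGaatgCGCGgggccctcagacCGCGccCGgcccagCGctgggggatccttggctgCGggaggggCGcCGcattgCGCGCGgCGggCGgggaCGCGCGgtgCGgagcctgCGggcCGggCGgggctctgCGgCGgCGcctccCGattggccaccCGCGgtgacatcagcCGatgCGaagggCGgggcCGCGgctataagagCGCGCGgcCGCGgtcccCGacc

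The TUBA3D and TUBA3E stretches were 92.86% identical over 252 aligned columns, and that of TUBA3C matched them at 67.32% and 68.65%. They held 14 (TUBA3C), 17 (TUBA3D) and 18 (TUBA3E) CpG pairs, where the median over 35116 annotated start windows of the same length was 11 with quartiles of 3 and 23. The letters CCAAT, counted on both strands with overlapping matches included and after the sequences had been read, occurred 5 times before TUBA3C, 5 times before TUBA3D and 6 times before TUBA3E. Of all windows, 0.319% held at least 5 and 0.105% at least 6. The downstream starts of TUBB6 and TUBB3 had 43 and 39 CpG pairs before them, at percentiles 99.2 and 97.8 of all windows, while their upstream starts had 17 (TUBB6) and 9 (TUBB3). The starts of TUBB2A, TUBB2B and TUBA4A had 33, 28 and 23. TUBA1A had 11, and the starts of TUBB4A had 18 and 3. CpG-dense stretches thus lay before 1 of the 2 starts of TUBB6, which was near 0 in DMSO, and before 1 of the 2 starts of TUBB3 and the start of TUBB2A, which were expressed in every line. Which start was used was not measured. A match of letters is a description of these windows, and their methylation was not analysed here.

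**Figure D2:**
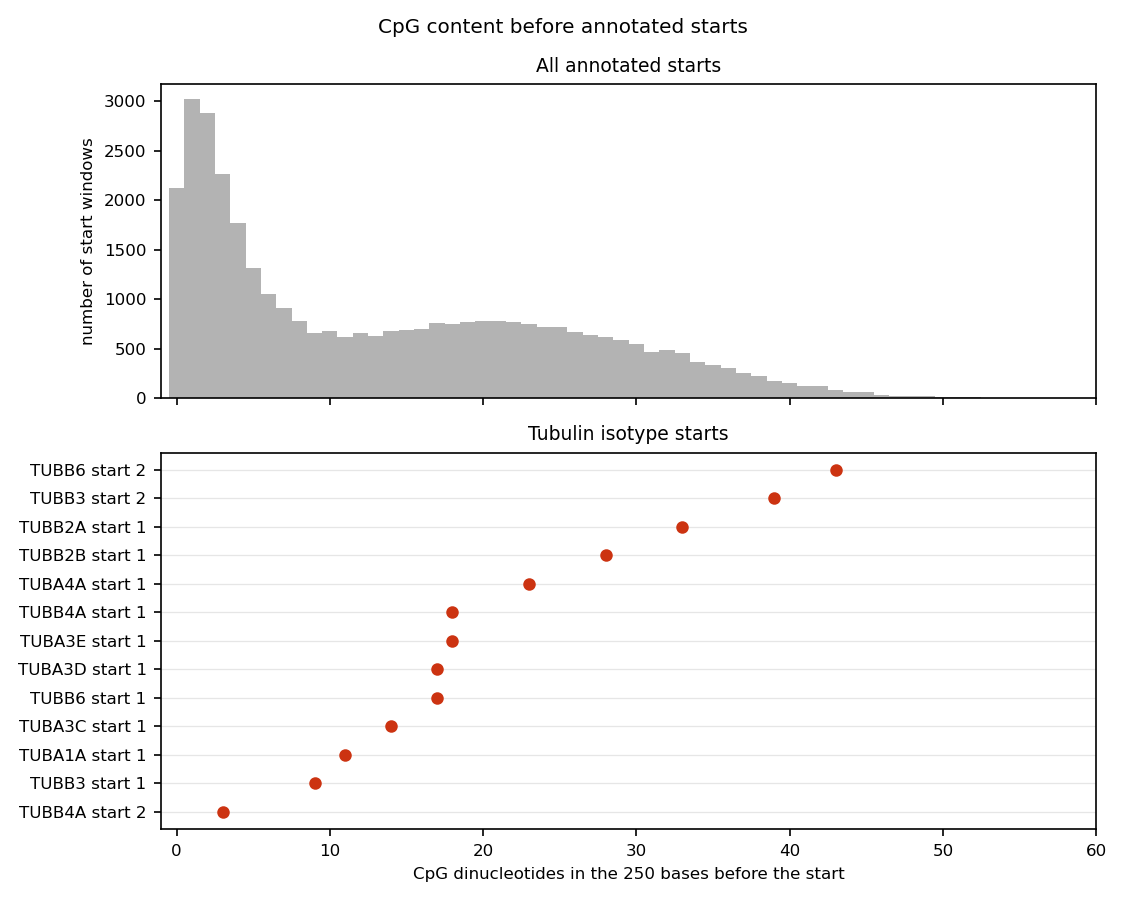
Number of CpG pairs in the 250 bases before annotated starts; the upper panel counts all 35116 start windows and the lower panel marks the 13 windows of the 10 isotypes by name. The windows of the isotypes ran from 3 CpG pairs (TUBB4A start 2) to 43 (TUBB6 start 2), on both sides of the median of 11.

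TUBA3D was listed at 0 in 8 of 10 DMSO libraries, and its highest DMSO value was 2.24. After DCB it read 317.5 and 324.1 in HGC27, 184 and 159 in AGS, 35.6 and 41.4 in SNU16, 19.2 and 25.6 in SNU719 and 6.62 and 3.81 in YCCEL1. The limma adjusted p over the 5 lines was 9.21e-07. The lowest DCB values, those of YCCEL1, were worth only a few reads. MZT2A, a gamma-tubulin ring component whose gene spans TUBA3D on the opposite strand, read 252 to 783 in all 20 libraries, including those with TUBA3D at 0.

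TUBA3E was also listed at 0 in 8 of 10 DMSO libraries, with a highest value of 1.78. After DCB it read 172 and 141 in AGS, 94.4 and 100.3 in HGC27, 56.7 and 44.5 in SNU719, 16.8 and 32.5 in SNU16 and 6.62 and 7.62 in YCCEL1. The limma adjusted p over the 5 lines was 1.45e-07. AGS was the line with the highest TUBA3E, while HGC27 was that with the highest TUBA3D. Their coding sequences were 98.81% identical and 439 of their 76-base windows, about 30.4% of either transcript, occurred in both, so the split of reads between them is uncertain. Within the last 500 bases, 77.88% of the windows of each occurred in no other tubulin gene.

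TUBA3C behaved differently by line. In SNU719 it read 498 and 519 in DMSO and 279 and 291.6 in DCB, a log2 difference of −0.83 (SE 0.34) that did not pass the test (adjusted p 0.105). In YCCEL1 it read 5.81 and 2.92 in DMSO and 10.8 and 17.8 in DCB, a log2 difference of 1.53 (SE 0.34, adjusted p 0.00494), a call lost without the DMSO library of 2.92 (0.0651) or the DCB library of 17.8 (0.0553). It was listed at 0 in all DMSO libraries of AGS, HGC27 and SNU16, and after DCB read 33.02 and 36.8 in AGS (adjusted p 8.05e-08), 24.1 and 22.1 in HGC27 (2.46e-07) and 1.94 and 2.16 in SNU16 (0.0107), the last being under the worth of 3 reads and lost without any of 3 of its libraries (0.0518 to 0.0622). TUBA3C shared only 84 windows with TUBA3D and 49 with TUBA3E, and 94.19% of its windows occurred in no other tubulin gene. Summed over these paralogs, which leaves the split of shared reads aside, DMSO and DCB means were 0 and 441 in HGC27, 2.01 and 363 in AGS, 0.475 and 65.1 in SNU16, 4.86 and 26.6 in YCCEL1, and 509 and 358 in SNU719. After DCB the sums of HGC27 and AGS stood at or above that of SNU719.

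In the untreated lines, TUBA3C differed among lines (F test in limma, adjusted p 4.13e-11), with SNU719 above YCCEL1 (adjusted p 2.32e-09) and YCCEL1 above the lines at 0 (6.9e-05 against AGS). No difference among DMSO groups was detected for TUBA3D (adjusted p 0.42), TUBA3E (0.503) or TUBB6 (0.135), all of them at or under the worth of 3 reads. The other 7 isotypes differed among lines, where 67.7% of all genes did. Without HGC27, TUBB4A no longer did (adjusted p 0.386). By pair of lines, 7 isotypes differed between HGC27 and YCCEL1 (49.1% of all genes) and between HGC27 and SNU719 (47.5%), and 5 between HGC27 and AGS (46.5%) and between HGC27 and SNU16 (48.7%). Among the other lines, 6 differed between SNU16 and YCCEL1 (37.5%) and between SNU16 and SNU719 (38%), 5 between SNU719 and AGS (33.1%), 4 between YCCEL1 and SNU719 (30.2%) and between YCCEL1 and AGS (33.3%), and 3 between AGS and SNU16 (39.7%).

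TUBB6, a class V beta isotype, was likewise near 0 in DMSO. It read between 0 and 2.38 in all 10 DMSO libraries and was listed at 0 in 5 of them. After DCB it read 181 and 162 in AGS, 88.3 and 118.5 in HGC27, 24.6 and 11.8 in SNU16, 5.52 and 6.71 in YCCEL1 and 2.22 and 2.90 in SNU719. The levels in AGS and HGC27 were far from those of the other lines, and the value in SNU719 was within the worth of 3 reads. The adjusted p was 9.67e-07 in AGS, 3.85e-06 in HGC27, 0.0227 in SNU16, 0.026 in YCCEL1 and 0.0396 in SNU719, and 0.000112 over the 5 lines. In SNU719 the call was lost without any of its libraries (adjusted p 0.101 to 0.158), in SNU16 without 3 of its 4 libraries (0.101 to 0.175) and in YCCEL1 likewise (0.0736 to 0.271). None of the 76-base windows of TUBB6 occurred in another tubulin gene. AFG3L2, a mitochondrial protease gene that overlaps the end of TUBB6 on the opposite strand, read 513 to 1787 in all libraries, including those with TUBB6 at 0.

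The alpha isotypes TUBA1A and TUBA4A were above 0 in all 20 libraries, each at a high level in particular lines. TUBA1A, mutated in lissencephaly, read 1477 and 1476 in HGC27 in DMSO and at most 29.6 in the DMSO libraries of the other lines, and HGC27 lay above the next line, AGS, with an adjusted p of 9.94e-09. DCB raised it in AGS from 16.7 and 29.6 to 145 and 135 (log2 difference 2.60, SE 0.38, adjusted p 0.000161) and in SNU719 from 6.13 and 4.17 to 20.1 and 25.7 (1.97, SE 0.38, adjusted p 0.00203). In HGC27 it read 2164 and 2151 after DCB, and in YCCEL1 6.39 and 11.6 against 5.10 and 8.62, and neither passed the test (adjusted p 0.366 and 0.633). In SNU16 it fell from 14.5 and 27.3 to 5.64 and 9.08 (log2 difference −1.36, SE 0.38, adjusted p 0.0498), a call that was lost without any of 3 of the 4 SNU16 libraries (adjusted p 0.0686 to 0.332). TUBA1A shared 25.05% of its windows with the abundant TUBA1B and 15.22% with TUBA1C. The fibroblast markers moved with the high level of TUBA1A in HGC27, and their part in it was not tested.

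TUBA4A read 1380.5 and 1334 in SNU16 and 735 and 867 in SNU719 in DMSO, and 6.13 to 29.2 in the other lines. The gap between SNU719 and the next line, YCCEL1, passed the test (adjusted p 5.07e-07), and that between SNU16 and SNU719 did not (0.169). DCB raised TUBA4A in the lines where it was low. It went from 26.0 and 25.9 to 331 and 353 in AGS (log2 difference 3.67, SE 0.41, adjusted p 1.27e-05), from 25.3 and 6.13 to 133 and 79.3 in HGC27 (2.92, SE 0.41, adjusted p 0.000116) and from 28.4 and 29.2 to 161 and 152 in YCCEL1 (2.40, SE 0.41, adjusted p 0.000697). It read 913 and 973 in SNU719 and 1384 and 1547 in SNU16 after DCB, with log2 differences of 0.24 (SE 0.41) and 0.11 (SE 0.41) that did not pass the test. Over the 5 lines the log2 difference was 1.87 (SE 0.37, adjusted p 0.00144).

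TUBB2A, a class II beta isotype of neurons, was above 0 in every library and was called higher in 4 lines. It rose from 411 and 372 to 1788 and 1711 in AGS (log2 difference 2.16, SE 0.24, adjusted p 1.22e-05) and from 13.9 and 26.2 to 185 and 153 in SNU719 (3.07, SE 0.24, adjusted p 6.68e-07). It rose from 79.3 and 60.9 to 264 and 205 in YCCEL1 (1.73, SE 0.24, adjusted p 0.00013) and from 194 and 154 to 425 and 379.7 in HGC27 (1.21, SE 0.24, adjusted p 0.00181). In SNU16 it read 172 and 194 in DMSO and 257 and 271 in DCB, and the log2 difference of 0.53 (SE 0.24) did not pass the test (adjusted p 0.253). Over the 5 lines the log2 difference was 1.74 (SE 0.23, adjusted p 2.95e-05). After DCB the lowest line, SNU719, stood near the level that SNU16 and HGC27 had in DMSO.

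TUBB2B, its neighbour on chromosome 6 and mutated in malformations of the cortex, had a different order of lines. It read 977 and 1071 in HGC27 in DMSO, 53.8 and 28.2 in SNU719, 3.62 and 18.2 in AGS, 3.86 and 6.02 in SNU16, and was listed at 0 in YCCEL1. DCB raised it to 90.6 and 96.8 in AGS (log2 difference 3.33, SE 0.54, adjusted p 0.000383), to 45.36 and 33 in SNU16 (2.77, SE 0.54, adjusted p 0.00681) and to 7.85 and 17.8 in YCCEL1 (adjusted p 0.000229). The call in SNU16 was lost without either of 2 of its libraries (adjusted p 0.0615 without the DMSO library of 3.86 and 0.0584 without the DCB library of 45.36). After DCB it read 1657 and 1589 in HGC27 and 20.5 and 29.6 in SNU719, and neither passed the test (adjusted p 0.453 and 0.481). TUBB2A and TUBB2B share 98.2% of their aligned coding bases, and 862 of their 76-base windows (55.94% of those of TUBB2A and 46.67% of those of TUBB2B) occurred in both. Within the last 500 bases, 47.29% of the windows of TUBB2A and 100% of those of TUBB2B occurred in no other tubulin gene. Their sum, which leaves the split aside, had DMSO and DCB means of 402 and 1843 in AGS, 1198 and 2025 in HGC27, 188 and 303 in SNU16, 70.1 and 247 in YCCEL1, and 61.0 and 194 in SNU719.

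TUBB3, the class III isotype often used as a mark of neurons and studied for its link to taxane resistance, was high before treatment. It read 1162 and 1248.5 in AGS, 935 and 861 in SNU719, 864 and 908 in YCCEL1, 389 and 559 in HGC27, and 111 and 166 in SNU16. AGS, SNU719 and YCCEL1, which are the CIMP+ lines, showed no detected difference between neighbours in this order (adjusted p 0.0795 and 1), and YCCEL1 lay above HGC27 (0.000432), and HGC27 above SNU16 (8.75e-07). A rise of TUBB3 with DCB was called in AGS alone, to 2681 and 2832 (log2 difference 1.19, SE 0.17, adjusted p 0.000147). In the other lines the log2 differences were −0.38 in YCCEL1, 0.12 in SNU719, −0.05 in SNU16 and 0.28 in HGC27 (SE 0.17 each), and none passed the test. The table also lists a readthrough of MC1R into TUBB3 on the same strand, which read 0 to 49.5, and its reads cannot be fully told from those of TUBB3.

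TUBB4A, a brain isotype mutated in a leukodystrophy, was expressed in HGC27, at 237 and 122 in DMSO and 172 and 261 in DCB. In the other lines it read 0 to 7.07 in DMSO and 0 to 12.9 in DCB. HGC27 lay above the next line in DMSO (adjusted p 9.32e-05). No DCB effect on TUBB4A passed the test in any line or over the lines (adjusted p 0.514). In HGC27 the log2 difference was 0.31 (SE 0.94), an error wide enough to leave a change of either sign undetected.

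**Figure D3:**
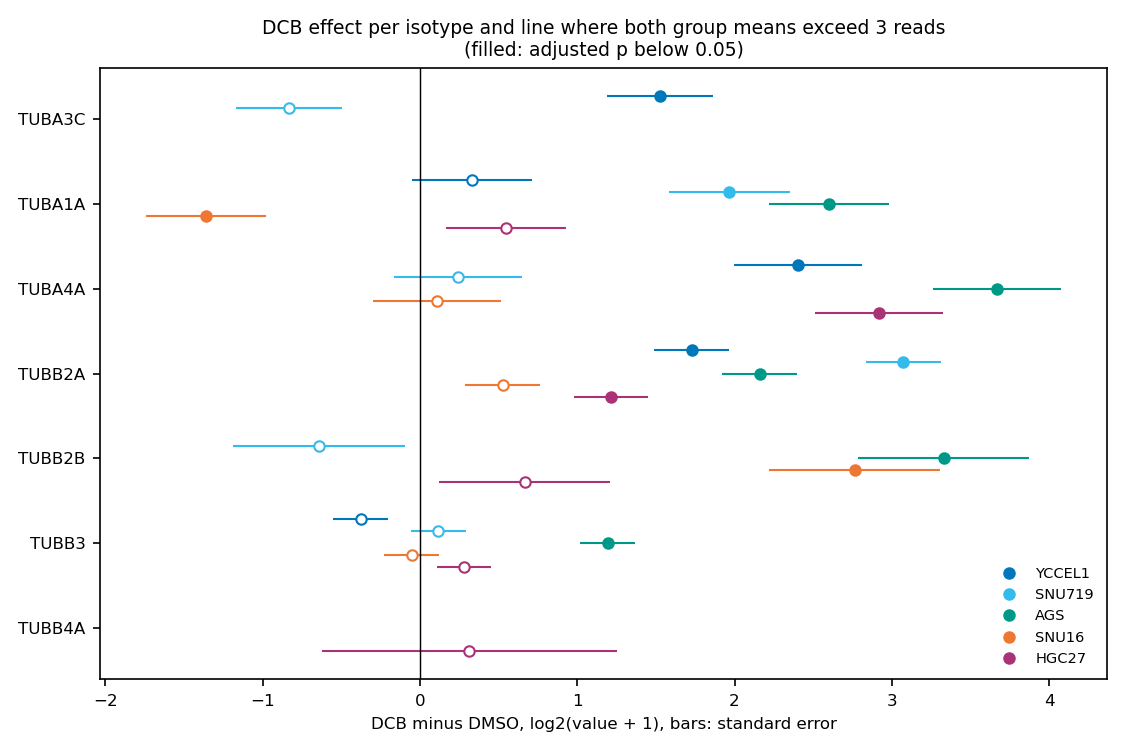
DCB minus DMSO on the log2(value + 1) scale for each isotype and line whose group means both exceeded the worth of 3 reads, with standard errors from limma; filled points passed an adjusted p of 0.05. TUBA3D, TUBA3E and TUBB6 have no point because their DMSO levels were too low; the largest difference shown is 3.67, for TUBA4A in AGS, and the lowest is −1.36, for TUBA1A in SNU16.

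The size of the DCB effect differed among the 5 lines for 9 of the 10 isotypes, all but TUBB4A (F test in limma, adjusted p 2.23e-06 to 0.00209 for the 9 and 0.334 for TUBB4A), where it did for 34.2% of all genes. This test was chosen after the effects in each line had been seen. The comparison of EBV+ with EBV− lines asked whether the response differed between these sets of lines. It cannot separate the virus from their other differences. The effect on TUBB2A was larger in EBV+ lines by 1.10 on the log2 scale (SE 0.22, adjusted p 0.00253), and that on TUBB3 was smaller (log2 difference −0.60, SE 0.16, adjusted p 0.0154, and 0.0518 with the replicate number as a block). By line, the TUBB2A effects of EBV+ lines (1.73 and 3.07) overlapped those of EBV− lines (0.53, 1.21 and 2.16), and for TUBB3 the AGS effect was apart from all others. The effects on TUBA3C (adjusted p 3.05e-06), TUBA3D (0.000347), TUBA3E (0.0105) and TUBB6 (0.000673) were also smaller in EBV+ lines, with no size given because some DMSO groups were at 0. For TUBA3E the lines overlapped, since it went from 0 to 56.7 and 44.5 in SNU719, which is EBV+, and from 0 to 16.8 and 32.5 in SNU16, which is EBV−. After DCB, TUBA3D and TUBB6 read lower in both EBV+ lines than in any EBV− line. For TUBA3C the SNU16 values were under the worth of 3 reads. SNU719, which is EBV+, already read 498 and 519 of TUBA3C in DMSO, and at 279 and 291.6 was still the highest line after DCB. In all, 1 isotype was higher and 5 were lower in this comparison, against 10.5% and 9.17% of all genes. Without HGC27, TUBA3E was no longer called (adjusted p 0.0899) and TUBA4A was (log2 difference −0.57, adjusted p 0.00219).

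For CIMP+ against CIMP− lines, the effect was larger for TUBA1A by 2.04 (SE 0.35, adjusted p 0.000822) and for TUBB2A by 1.45 (SE 0.22, adjusted p 0.000286), and smaller for TUBA3C (adjusted p 0.0164) and TUBA3D (0.00596). The TUBB2A effects of the 3 CIMP+ lines (1.73, 3.07 and 2.16) all lay above those of the 2 CIMP− lines (0.53 and 1.21). For TUBA1A the lines overlapped, since the effect in YCCEL1 (0.33) was below that in HGC27 (0.55), and the lowest effect was that of SNU16 (−1.36), whose call was lost without any of 3 of its libraries. The lines also overlapped for TUBA3C and TUBA3D. After DCB, TUBA3C read 33.02 and 36.8 in AGS, which is CIMP+, and 1.94 and 2.16 in SNU16, which is CIMP−. TUBA3D read 184 and 159 in AGS and 35.6 and 41.4 in SNU16. Of all genes, 12.8% were higher and 8.94% lower. Without HGC27, SNU16 was the only CIMP− line, so the comparison was of the CIMP+ lines with a single line. The TUBA3C and TUBA3D differences were then not called (adjusted p 0.64 and 0.859), while TUBA1A and TUBB2A still were (0.00445 and 0.00307). TUBA4A was called too (log2 difference 1.995, adjusted p 2.52e-06). Its effect in HGC27 (2.92) lay above those in YCCEL1 (2.40) and SNU719 (0.24) and below that in AGS (3.67). TUBA4A was also called without the HGC27 DMSO library of 6.13 alone (1.06, adjusted p 0.00107). The p-values of both comparisons use the spread between libraries, although lines are the replicates of EBV or CIMP status. Over lines, 2 against 3, the smallest two-sided p of an exact permutation test is 0.1.

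How far the isotypes entered the tubulin pool was described as their share of all alpha or all beta isotype values per kb of transcript, where the remainder was mainly TUBA1B, TUBA1C, TUBB and TUBB4B. The shares depend on the division by length, and whether it suits these libraries is not settled. Undivided, the beta share of AGS was 11.8% in DMSO and 25.4% in DCB, and 16 shares of a group moved by more than the spread between libraries. In AGS, the 5 beta isotypes went from 14.3% ± 0.27 (SD, n = 2) in DMSO to 29.1% ± 0.38 in DCB, with TUBB3 going from 10.6% to 16.6% and TUBB2A from 3.63% to 11.1%. In the same line the 5 alpha isotypes went from 0.331% ± 0.065 to 5.55% ± 0.10, and in YCCEL1 from 0.449% ± 0.0096 to 2.24% ± 0.013. The largest alpha shares outside HGC27 were in SNU719, at 16.2% ± 0.89 and 17.4% ± 0.23, where TUBA3C went from 7.46% to 4.60% and TUBA4A from 8.71% to 11.3%. In SNU16, the alpha share was 6.003% ± 0.013 and 7.20% ± 0.54, nearly all TUBA4A, and the beta share was the lowest of all lines, at 2.96% ± 0.54 and 4.34% ± 0.25.

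The shares of HGC27 fell between treatments. Its alpha share was 24.3% ± 0.22 in DMSO and 11.8% ± 0.26 in DCB, and its beta share 23.6% ± 0.82 and 17.3% ± 0.09, although none of these isotypes was called lower there. TUBA1A alone held 24.1% of alpha values in DMSO and 9.33% in DCB. In that line TUBA1B rose from 3854 and 3855 to 17660 and 18044 (log2 difference 2.21, SE 0.03, adjusted p 4.32e-15) and TUBB from 5535 and 5512.5 to 13335 and 13519 (1.28, SE 0.03, adjusted p 2.28e-12), and these 2 genes were singled out after their values had been seen. In the other 4 lines the log2 differences of TUBA1B lay between −0.32 and −0.01.

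**Figure D4:**
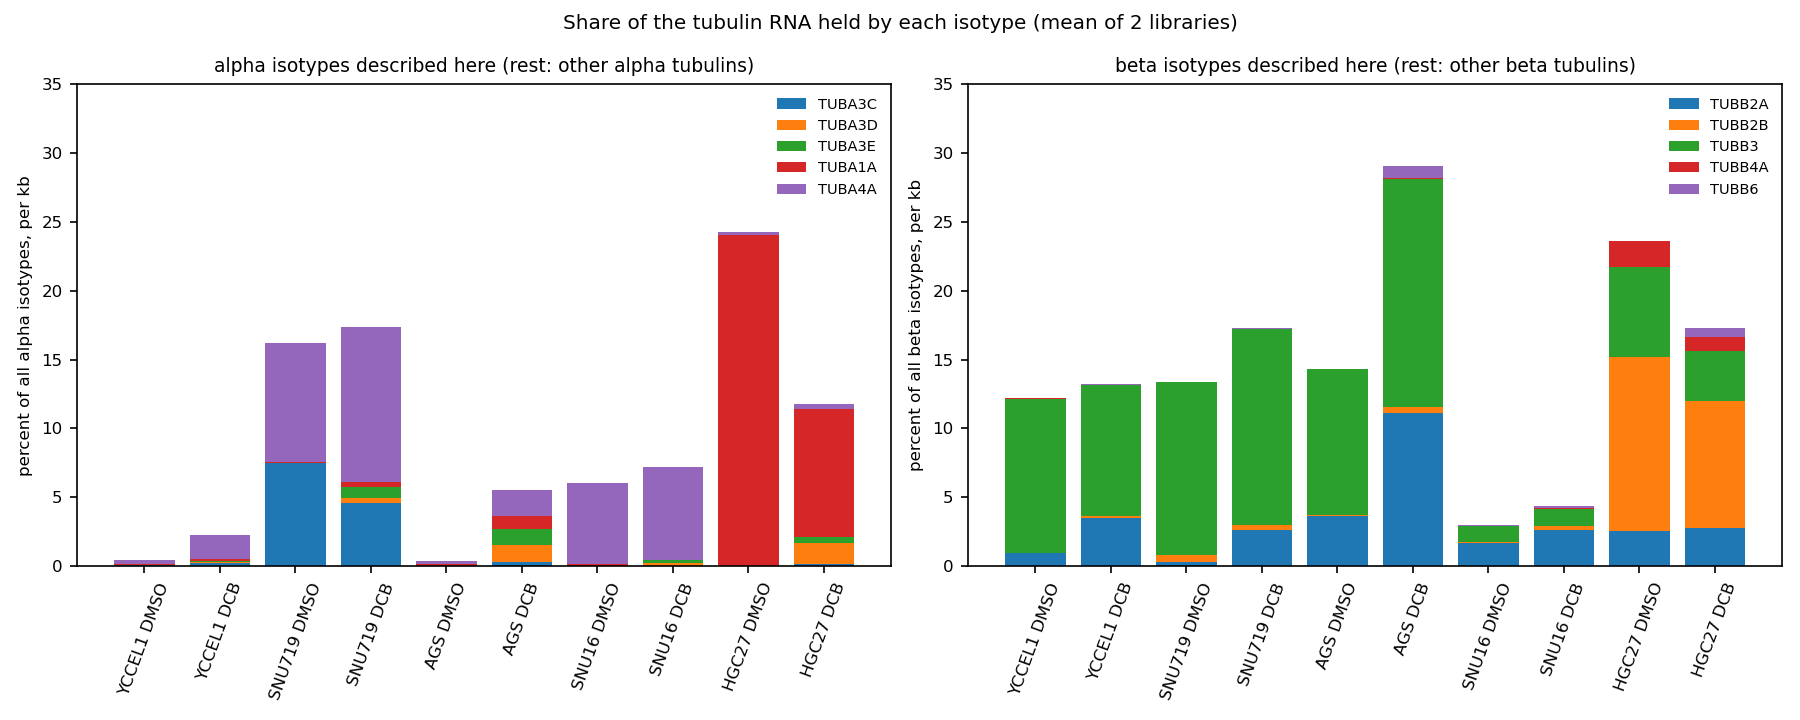
Percent of all alpha (left) and all beta (right) isotype values per kb held by each of the 10 isotypes in each line and treatment, as stacked means of 2 libraries; the part not drawn, up to 100%, belongs to the other tubulins. The beta stack of AGS goes from 14.3% to 29.1% with DCB and the alpha stack of HGC27 from 24.3% to 11.8%.

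Among the other 14 tubulins, 13 were tested, of which 5 were higher and 1 was lower over the 5 lines, with a median log2 difference of 0.40 beside 0.15 for all genes. The lower gene was TUBE1, epsilon tubulin of centrioles, with a log2 difference of −1.02 (SE 0.13, adjusted p 3.27e-05). TUBG1, gamma tubulin of the nucleating ring, was higher by 0.54 (SE 0.13, adjusted p 0.00432) and TUBB4B by 0.40 (SE 0.10, adjusted p 0.00533). TUBB8B, a copy of the oocyte isotype gene TUBB8, was also higher (adjusted p 0.00154).

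Over the 5 lines, where 17.9% of all genes were higher and 6.94% lower, 2 of 22 genes for tubulin folding and autoregulation were higher and 2 lower, with a median of −0.01, among them PFDN6 at 0.62 (SE 0.07, adjusted p 4.7e-06) and TCP1 at 0.27 (SE 0.08, adjusted p 0.0197), both parts of chaperones that fold nascent tubulin, and ARL2, a GTPase of the dimer assembly machinery, at −0.45 (SE 0.08, adjusted p 0.000368) and PFDN4, of prefoldin, at −0.38 (SE 0.07, adjusted p 0.00103). By line, these folding genes differed in direction, with 10 higher and 2 lower in HGC27, 6 and 1 in AGS, 4 and 7 in YCCEL1, 1 and 7 in SNU719, and 1 and 1 in SNU16. Of 23 modifying enzymes tested, 3 were higher over the 5 lines and 2 lower, with a median of 0.08. The polyglutamylase gene TTLL6 was higher (adjusted p 0.0329) and SVBP, the partner of the detyrosinating vasohibins, by 0.38 (SE 0.13, adjusted p 0.0405). The polyglutamylase gene TTLL1 had a log2 difference of −0.92 (SE 0.23, adjusted p 0.00795) and the carboxypeptidase gene AGBL5 one of −0.31 (SE 0.10, adjusted p 0.0345).

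Genes of the tissues from which the isotypes are known were counted beside them. All 9 germline genes tested were higher over the 5 lines, with a median of 3.94. DAZL, a germ cell RNA-binding protein, was listed at 0 in 9 of 10 DMSO libraries and read 52.8 to 406 in DCB (adjusted p 2.98e-12), and SYCP3, of the synaptonemal complex, was higher as well (adjusted p 1.89e-10). MAEL and TDRD1, of the piRNA pathway, were also higher (adjusted p 2.53e-10 and 1.71e-07). Of 9 tested genes of the sperm flagellum and tektins, 3 were higher and 1 lower, with a median of 0.63. SPAG6, TEKT2 and CATSPER1 were the higher genes (adjusted p 0.000109, 0.000767 and 0.00313), and SPAG16 the lower (log2 difference −0.30, SE 0.11, adjusted p 0.0423). By line, 8 of the 9 germline genes were higher in YCCEL1 and SNU719, 9 in AGS, and 7 in SNU16 and HGC27.

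Of 9 neuronal microtubule-associated proteins tested, 2 were higher and none lower, TPPP3 (adjusted p 0.00196) and MAP1B (0.0035), whereas STMN3 (0.40, SE 0.15, adjusted p 0.0536) and DCLK1 (0.0949) did not pass. Of 6 neuron markers tested, 4 were higher, namely NEFL, SYP, NEFM and ELAVL3 (adjusted p 0.000126, 0.00102, 0.00638 and 0.00842). The neuron list of 7 summed to 5.79 to 167 in DMSO and 40.2 to 895 in DCB, with no marker at 0 in all libraries. It was highest after DCB in HGC27, at 895 and 872. The fibroblast markers had 5 of 6 higher, led by COL1A2, COL1A1, LUM and DCN (adjusted p 0.000396, 0.0011, 0.00234 and 0.00691), and the epithelial markers 1 of 7, CLDN7, at 0.34 (SE 0.09, adjusted p 0.0126), with KRT19, KRT8 and KRT18 at 0.53, 0.56 and 0.59 (adjusted p 0.056, 0.0604 and 0.0923). These lists and the isotypes known from neurons did not move together in every line. In HGC27, 4 of the 6 neuron markers tested were higher with DCB, but of those isotypes only TUBB2A was (14.7% of all genes). In AGS, 3 of the markers were higher, and so were TUBA1A, TUBB2A, TUBB2B and TUBB3 (18.5% of all genes). The part of these lists in the results of the isotypes was not tested.

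The isotypes fell into groups by their profile over the 10 group means on the log2(value + 1) scale, given as a description since the groups share their lines and libraries. TUBA3D and TUBA3E correlated at 0.973, and TUBB6 with them at 0.934 and 0.876, whereas TUBA1A correlated with TUBB4A at 0.952 and with TUBB2B at 0.854. Among 16241 genes other than tubulins, the 3 most like each isotype were ZFR2 (0.954), SSX5 (0.949) and DDX4 (0.945) for TUBA3C, NNAT (0.959), CKM (0.942) and TEX11 (0.941) for TUBA3D, and TFDP3 (0.953), HCLS1 (0.943) and DAZL (0.94) for TUBA3E. They were UCHL1 (0.94), CDKN2D (0.933) and OVAAL (0.93) for TUBB6, PYGO1 (0.985), NEXN (0.981) and LZTS1 (0.979) for TUBA1A, and PPP1R14D (0.986), RPL39L (0.982) and MYO1A (0.966) for TUBA4A. For the other beta isotypes they were JMJD4 (0.966), ZBTB42 (0.954) and PARVA (0.938) for TUBB2A, WDCP (0.972), FDX2 (0.97) and LIX1L (0.967) for TUBB2B, ZNF35 (0.992), NUCB1 (0.966) and CRELD1 (0.959) for TUBB3, and KCNJ8 (0.984), PRICKLE1 (0.983) and EXT1 (0.982) for TUBB4A. DDX4 and DAZL, which mark germ cells, were also members of the germline list.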

How the data were processed

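RNA of 5 gastric cancer lines treated with DMSO or DCB was measured in 20 libraries. The table deposited by the authors holds a signal per gene, taken here as estimated counts normalized before deposit, since 36.6% to 44.7% of values under 300 reads per library were whole multiples (within 0.02) of the worth of a read. The submitters' processing notes list DESeq2 (version 1.14.1), featureCounts (1.5.1), the aligner STAR (2.5.2b) and the build GRCh37 among the authors' steps, whereas the study's methods name GRCh38 and stranded 3′ libraries and the labels name an unstranded poly(A) kit. The table's positions are those of GRCh38, with 92.6% of 60064 genes identical in GENCODE 44. Whether strand was used is not settled, so antisense pairs may share reads. All value columns were used.

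A pseudocount of 1 was added before taking log2. Linear models were fitted in limma (version 3.58.1, trended empirical Bayes; R 4.3.3, with the data.table package at 1.17.8) to 27350 genes, those with a summed value over 10, and p-values were adjusted (Benjamini-Hochberg) over all of them. A gene was called at an adjusted p below 0.05. Line effects came from a fit with 10 groups, and the effect over lines from a fit with a line term. The script was tested on simulated data. Fold changes on this scale understate low genes, and none is given where a DMSO group was listed at 0 or under the worth of 3 reads, except in medians and for a single difference whose sign changed with the processing. Depth, 7101727 to 10731397 read equivalents per library, covers counting error only. Shares used canonical GENCODE transcript lengths, and shared 76-base windows were counted among tubulin transcripts only. Promoters came from RefSeq (GRCh38.p14), with 10 of 10 isotypes matched, and were aligned with Biopython 1.88. Tables were handled with pandas 2.3.3 and figures drawn with matplotlib 3.10.9 in Python 3.11.15.

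Named genes were the 10 isotypes, the 4 genes of each other list with the smallest adjusted p over the 5 lines, and the 3 genes most like each isotype among genes with a mean of at least 10, with exceptions named as such. A further marker list is not reported here. The isotypes and lists were chosen with earlier results of these data known. Alternatives were other pseudocounts (0.5 and 5), filters, scaling, no trend, a replicate block, lines fitted alone, each library left out and HGC27 left out. The test of whether the effect differs among lines and the leaving out of HGC27 were added after the data had been seen.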

Additional observations from a re-analysis of the deposited data

Results flagged for a closer look

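The DCB effect on 6 isotypes differed between EBV+ and EBV− lines by a test of the difference itself (limma, adjusted p): TUBA3C (3.05e-06), TUBA3D (0.000347), TUBA3E (0.0105), TUBB3 (0.0154) and TUBB6 (0.000673) responded less in EBV+ lines, and TUBB2A (0.00253) responded more. It differed between CIMP+ and CIMP− lines for 4 isotypes, with TUBA1A (0.000822) and TUBB2A (0.000286) responding more in CIMP+ lines and TUBA3C (0.0164) and TUBA3D (0.00596) less. Of all genes, 10.5% responded more and 9.17% less in EBV+ lines, and 12.8% more and 8.94% less in CIMP+ lines. TUBA3C read 498 and 519 in the DMSO libraries of SNU719, which is EBV+ and CIMP+, and at most 5.81 in those of the other lines. With the replicate number as a block, the TUBB3 difference was not called (0.0518), nor was that of TUBA3C between CIMP+ and CIMP- lines (0.0742). Without HGC27, the EBV difference of TUBA3E was not called (0.0899), nor were the CIMP differences of TUBA3C and TUBA3D (0.64 and 0.859). The p-values use the spread between libraries, although lines are the replicates of EBV or CIMP status. Over the 5 lines, the smallest two-sided p of an exact permutation test is 0.1. By line, the effects of EBV+ and EBV− lines overlapped for TUBB2A, TUBB3 and TUBA3E. Those of CIMP+ and CIMP− lines overlapped for TUBA1A, TUBA3C and TUBA3D. No group had enough libraries for a search for outlying samples.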

How the results depend on the processing

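Values of single isotypes and shares were recomputed under alternatives. Of these, 1923 kept their side of the threshold or moved within the spread between libraries, 48 lost a call and 22 gained one. A further 16 shares moved by more than that spread, and 1 value that had been called changed sign. Differences called under neither setting were not checked for sign. Some of the 1923 changed it, as those of TUBA3E, TUBB2B and TUBB6 between CIMP+ and CIMP- lines did without HGC27. The difference of the TUBA3C effect between CIMP+ and CIMP- lines changed sign without HGC27 (log2 difference 0.346, adjusted p 0.64, a size that depends on the pseudocount since DMSO groups were at 0), and 0 isotypes were then called lower. SNU16 was then the only CIMP- line. Fitted alone, which leaves 2 residual degrees of freedom, YCCEL1 had 4 isotypes higher and 1 lower (TUBB3), SNU719 1 lower (TUBA3C) and SNU16 1 higher and 0 lower. TUBA3C was also the 1 isotype lower in SNU719 with a pseudocount of 5 or no trend (adjusted p 0.014 and 0.031), and TUBA1A in SNU16 was not called with a pseudocount of 0.5, no filter or no trend (0 lower, adjusted p 0.0522 to 0.0671). Leaving out each library gave 5 to 7 higher and 0 to 1 lower (TUBB4A, adjusted p 0.047) in YCCEL1, 4 higher in SNU719, 9 in AGS, 2 to 4 higher and 0 to 1 lower in SNU16, 6 higher in HGC27, and 7 to 8 over the 5 lines, the eighth being TUBA1A without either of 2 SNU16 libraries (adjusted p 0.0297 and 0.0365). TUBB6 differed among DMSO lines without 1 YCCEL1 library (0.0402), as did TUBA3D without 1 AGS library (0.0317). Taking the mean of the 5 line effects with the spread between libraries called TUBA1A and TUBB3 as well (0.00168 and 0.0293). No pairing by replicate number was detected over genes, since the deviations of same-numbered libraries correlated at -0.019 to 0.015. This cannot show that the libraries were unpaired, and the labels do not say. With the number as a replicate block, SNU16 had 3 higher, 1 isotype was lower in CIMP+ lines, and TUBB6 lost its call in YCCEL1, SNU719 and SNU16 (0.0607, 0.0805 and 0.0725). Of the EBV differences, the block ended the call of TUBB3 (0.0518) and added TUBA4A (0.023). The block also ended the calls of TUBA3C in SNU16 (0.0762) and in the CIMP difference (0.0742). Without division by length, the median share over the 20 libraries was 6.96% for alpha and 11.78% for beta isotypes, against 6.41% and 14.03% per kb. The cause of these changes was not tested, except that lines fitted alone use fewer libraries. Depth limits isotypes near the worth of 3 reads, mainly TUBA3C in SNU16 and TUBB6 in SNU719.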
